A study of Mus musculus with 20 samples.

Results

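Sperm DNA of unexposed C57BL/6J males was compared with sperm DNA of unexposed FVB/N males at 22480 promoters. These vehicle controls were 10 of the 20 libraries of the series, with 5 C57BL/6J control and 5 FVB/N control libraries, and they were chosen by strain and treatment as labelled. The mothers of all 10 males had received corn oil only, on gestation days 9 to 19, and the males gave sperm from the epididymis and vas deferens at 8 weeks of age. The other 10 libraries came from C57BL/6J DEHP and FVB/N DEHP males of the same age, 5 of each strain, whose mothers had received DEHP (a phthalate plasticizer) in corn oil at 300 mg/kg/day over the same days. These libraries were prepared and sequenced as a separate submission, and they are used here to look at the same strain contrast in other males. The sources used here do not say which males were littermates.

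In MBD-sequencing, a methyl binding domain captures DNA fragments that carry methylated CpG, and the captured fragments are sequenced. The number of reads over a promoter therefore depends on its methylation and on how many CpG it holds. The sperm genome is methylated over most of its length, whereas the CpG-rich promoters of genes used in every cell and of germ line genes are largely free of methylation. C57BL/6J and FVB/N are inbred mouse strains that differ at many positions of the genome, and the mm10 assembly onto which all reads were aligned was made from C57BL/6J. A read from FVB/N that differs from mm10 at several bases can fail to align. The paper also describes CpG sites that a variant makes present in a single strain, as in the Smim8 promoter. The parts of alignment, of differing sequence and of methylation in a lower FVB/N level cannot be told apart in these data.

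The files give for each promoter a mean and an SD of normalized reads per group and no value of a single library. A level below is the authors' mean brought to an equal sum in every group, with the authors' SD brought to the same scale (n = 5 males in each group). The depth of single libraries is not given in the sources used here. The strain difference is given as log2 of (C57BL/6J + 1) over (FVB/N + 1), so it is positive where C57BL/6J was higher, and the added 1 lessens the ratio of low promoters. An exact or permutation test needs values of single libraries, and the summaries were compared here without a test. Libraries are called separated where the group means plus and minus 1.79 SD did not overlap, because with 5 libraries none can lie further than this from the mean. Every library of one strain was then above every library of the other, and the counts are lower limits. A second, looser call took promoters that were at least 2-fold apart and differed by at least 2 times the larger SD.

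Before scaling, the column of C57BL/6J controls had a sum of 226268 and that of FVB/N controls one of 141092. After scaling, the median promoter had a level of 4.06 in C57BL/6J against 3.91 in FVB/N. The FVB/N controls varied more between males. At levels of 5 to 10, the SD was 0.391 of the mean in C57BL/6J controls and 0.704 in FVB/N controls, as medians over promoters, against 0.397 and 0.383 in the DEHP groups of the same strains. In C57BL/6J controls, 111 promoters were listed at 0, compared with 204 in FVB/N controls.

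The libraries were separated with C57BL/6J higher at 69 promoters (0.307% of all promoters) and with FVB/N higher at 25 (0.111%). By the looser call, C57BL/6J was higher at 196 promoters (0.872%) and FVB/N at 70 (0.311%). Without the SD criterion, 774 promoters (3.44%) had a log2 ratio of 1 or more and 648 (2.88%) one of -1 or less. The part of the wider SD of FVB/N controls in the uneven calls was not tested. The 69 promoters formed 68 separate regions and the 25 formed 25, after overlapping probes were merged. These splits depend on the scale. With the means as deposited, the separated promoters were 239 with C57BL/6J higher and 6 with FVB/N higher, and those of the looser call 953 and 15. On that scale the log2 ratio of the median promoter was 0.54, against 0.00 with equal sums, so that a shift common to all promoters is part of those counts.

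**Figure D1:**
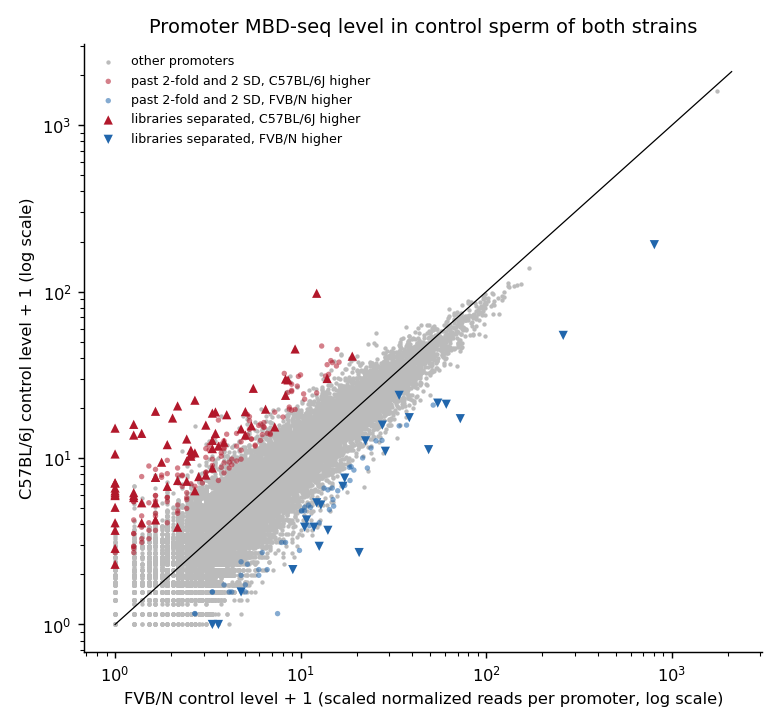
Each point is 1 of 22480 promoters, placed by its level plus 1 in FVB/N controls (x axis, scaled normalized reads, log scale) and in C57BL/6J controls (y axis, log scale), and the line marks equal levels. Triangles are the 69 promoters with separated libraries and C57BL/6J higher (red) and the 25 with FVB/N higher (blue), and small coloured dots are further promoters past 2-fold and 2 SD.

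The stretches just before the gene start are shown for 4 of the most separated promoters, to show how widely these promoters differ in CpG density. Captured fragments can come from anywhere in the longer probe. They are RefSeq sequences of GRCm38.p6, the assembly that mm10 corresponds to, and give the 250 bases before the start, 5′ to 3′ on the gene's strand, with every CG in capitals. Actr2 lies at chr11:20112952-20113201 on the minus strand, Cd200r2 at chr16:44866847-44867096 on the plus strand, Kdf1 at chr4:133518713-133518962 on the plus strand, and Rpl10l at chr12:66284402-66284651 on the minus strand. The first 3 were higher in C57BL/6J and Rpl10l was higher in FVB/N.
Actr2: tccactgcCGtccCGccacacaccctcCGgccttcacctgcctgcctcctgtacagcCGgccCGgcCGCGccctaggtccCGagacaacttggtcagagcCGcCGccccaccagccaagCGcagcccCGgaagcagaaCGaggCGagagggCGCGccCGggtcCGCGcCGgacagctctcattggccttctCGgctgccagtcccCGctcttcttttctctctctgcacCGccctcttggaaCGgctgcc
Cd200r2: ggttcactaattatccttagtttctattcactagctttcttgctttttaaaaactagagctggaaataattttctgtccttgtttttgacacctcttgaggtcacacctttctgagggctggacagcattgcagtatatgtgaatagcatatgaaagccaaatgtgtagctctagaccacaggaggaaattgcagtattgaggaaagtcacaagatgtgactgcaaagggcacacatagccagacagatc
Kdf1: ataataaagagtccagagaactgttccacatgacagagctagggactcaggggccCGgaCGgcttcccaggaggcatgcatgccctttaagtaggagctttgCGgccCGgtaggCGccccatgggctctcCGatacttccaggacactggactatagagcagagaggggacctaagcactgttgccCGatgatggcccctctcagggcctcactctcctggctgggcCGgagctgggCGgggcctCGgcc
Rpl10l: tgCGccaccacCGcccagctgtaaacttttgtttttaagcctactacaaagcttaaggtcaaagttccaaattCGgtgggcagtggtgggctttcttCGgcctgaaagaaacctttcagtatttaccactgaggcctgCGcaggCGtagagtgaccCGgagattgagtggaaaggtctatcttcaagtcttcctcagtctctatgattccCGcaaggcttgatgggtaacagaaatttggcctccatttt
These stretches hold 24 CG in Actr2, 0 in Cd200r2, 10 in Kdf1 and 8 in Rpl10l. CG reads the same on both strands, and 92.1% of 32817 such RefSeq stretches hold at least 1, with a median of 6. The whole probes, which run from 2 kb before the start to 200 bases after it, hold 85, 20, 54 and 42 CG sites.

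Ranked by the difference over the larger SD, promoters with higher levels in C57BL/6J were led by Actr2, which codes for an actin-related subunit of the Arp2/3 complex. The Actr2 level was 4.95 ± 0.812 (SD) in C57BL/6J controls, and it was listed at 0 in FVB/N controls. From mean and SD, every C57BL/6J library lay between 3.39 and 6.52. Cd200r2, a receptor of the CD200 family on immune cells, had a level of 13.1 ± 2.11 in C57BL/6J against 0.391 ± 0.781 in FVB/N (log2 ratio 3.34). The lowest C57BL/6J library possible was 9.18 and the highest FVB/N library possible was 1.97, so the groups stood well apart. Mrgprb8, a Mas-related receptor gene, had 18.1 ± 2.92 against 0.651 ± 0.781 (log2 ratio 3.53), and its probe carries 67 variants between the strains. Gm9833, a predicted gene, had 19.6 ± 3.33 against 1.17 ± 1.69 (log2 ratio 3.24) with 0 listed variants in the probe.

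Crisp2, which codes for a protein of the sperm acrosome and tail, had a level of 4.79 ± 0.893 in C57BL/6J against 0.26 ± 0.651 in FVB/N (log2 ratio 2.20). Its libraries were separated, between 3.08 and 6.50 in C57BL/6J and at most 1.61 in FVB/N. Cast, the calpain inhibitor calpastatin, had 4.38 ± 0.406 against 0.391 ± 0.781 (log2 ratio 1.95). Ulbp1, a ligand of the activating receptor NKG2D of natural killer cells, had 8.44 ± 1.71 against 0.781 ± 1.17 (log2 ratio 2.41). The overlapping probes named H2-T23, a non-classical MHC class I gene, and C920025E04Rik both had a level of 6.66 in C57BL/6J against 0.651 in FVB/N (log2 ratio 2.21). In GENCODE these probes overlap exons of the antisense transcript BC023719 and of the pseudogene H2-T-ps and none of H2-T23. The other leading promoters were AY761185 in the defensin region of chromosome 8 (log2 ratio 2.48), Olfr1033, an olfactory receptor gene (log2 ratio 1.92), Gm15698 (log2 ratio 2.19) and Kdf1, a gene of keratinocyte differentiation (log2 ratio 2.02).

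On mm10, the Actr2 probe spans chr11:20112752-20114951, that of Cd200r2 chr16:44865097-44867296, that of Mrgprb8 chr7:48386526-48388725, that of Crisp2 chr17:40793947-40796146 and that of Kdf1 chr4:133516963-133519162. In the GENCODE annotation each of these overlaps an exon of its own gene and of no other. The Olfr1033 probe, chr2:86018640-86020839, is repeat-masked over 93.0% of its bases, compared with a median of 19.2% over all promoters and 26.5% over the 69.

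In the same ranking, promoters with higher levels in FVB/N were led by Rps4l and 3110070M22Rik. Rps4l, a ribosomal protein S4-like retrogene annotated as a transcribed pseudogene, had a level of 8.07 ± 0.781 in FVB/N controls and 1.14 ± 1.30 in C57BL/6J controls (log2 ratio -2.09). Every FVB/N library lay at 6.49 or above and every C57BL/6J library at 3.57 or below. Rad50, a subunit of the complex that binds broken DNA ends, had 16.3 ± 1.43 in FVB/N and 6.58 ± 2.03 in C57BL/6J (log2 ratio -1.19). Rpl10l, a ribosomal protein retrogene used in the male germ line, had 9.76 ± 0.781 against 3.25 ± 1.79 in the same order (log2 ratio -1.34). Dlgap5, which codes for a protein of the mitotic spindle, had 9.50 ± 1.95 against 2.84 ± 1.14 (log2 ratio -1.45).

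The probe of 3110070M22Rik, at chr13:119488185-119490384, overlaps exons of that transcript and of Tmem267. It had the highest levels of these promoters, with 803.9 ± 127 in FVB/N controls and 190.4 ± 65.6 in C57BL/6J controls (log2 ratio -2.07). The DEHP males had far lower levels there, 56.4 ± 9.29 in FVB/N and 28.6 ± 12.6 in C57BL/6J (log2 ratio -0.95). Their libraries were not separated. Mir6385, a microRNA whose probe overlaps exons of Pml, had 53.8 ± 4.30 in FVB/N controls against 20.4 ± 7.31 in C57BL/6J controls (log2 ratio -1.36). In 6820431F20Rik, a transcribed pseudogene of the defensin region, the control level was 71.5 ± 15.1 in FVB/N and 16.2 ± 4.22 in C57BL/6J (log2 ratio -2.07). The remaining leading promoters were Rnu7, the RNA of the U7 particle that trims histone messages, at -1.38, the olfactory receptor gene Olfr1454 at -1.61, 4930481A15Rik at -1.14 and the ubiquitin ligase gene Rnf19b at -0.82, all log2 ratios. The Rnu7 probe overlaps an exon of Cckar. With the means as deposited the libraries of Rad50, Mir6385, Olfr1454, Rnf19b, 4930481A15Rik, Rnu7, Rpl10l and Dlgap5 were no longer separated, though FVB/N kept the higher mean in each.

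**Figure D2:**
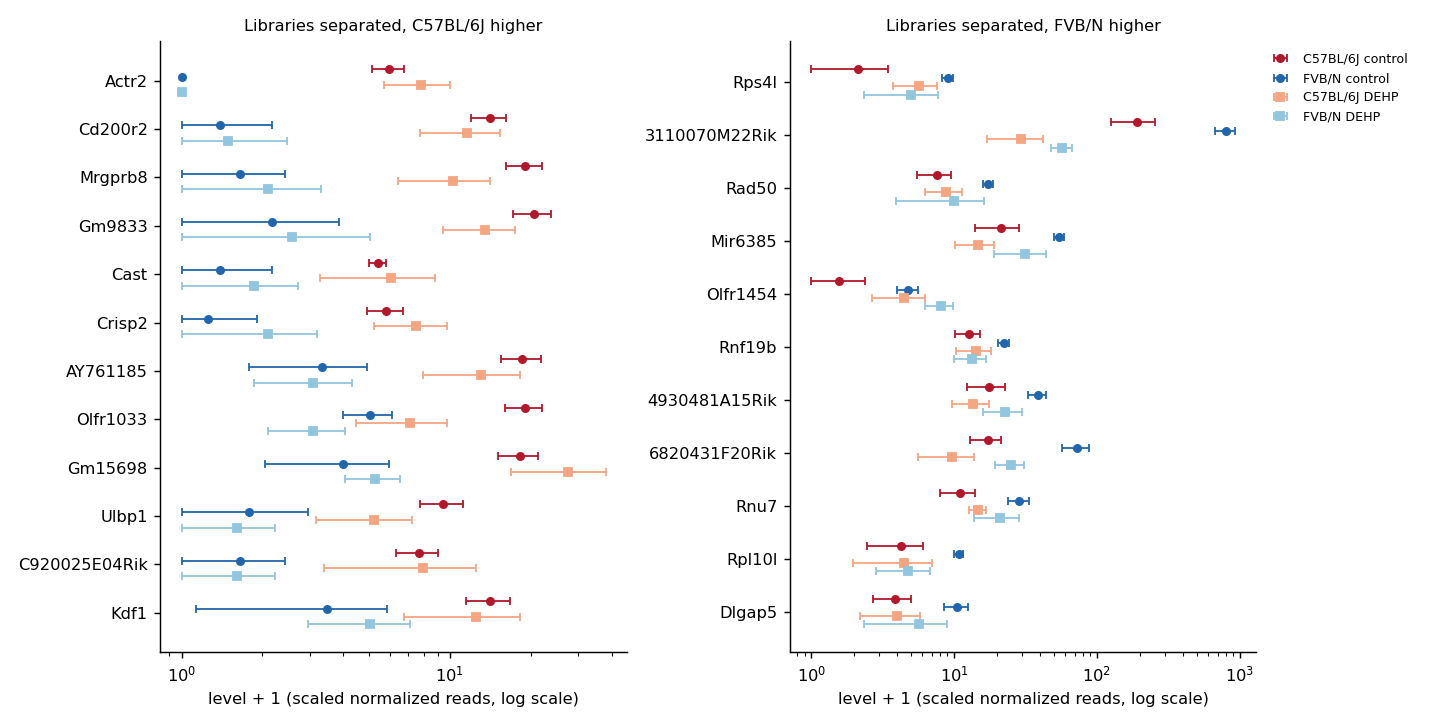
Levels plus 1 (x axis, scaled normalized reads, log scale) of the 12 most separated regions in each direction, less 1 with FVB/N higher that is not shown, with points for the scaled authors' means and bars for the SD of 5 males per group. C57BL/6J is red and FVB/N blue, with circles for controls and paler squares for DEHP males. On the left the bars stand apart in controls and, except at Kdf1, in DEHP males. On the right they stand apart in controls, and in DEHP males only at 3110070M22Rik and 6820431F20Rik.

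Some promoters were listed at 0 in one strain. Of the 69 separated promoters, 14 were listed at 0 in FVB/N controls, whereas 2 of the 25, Olfr741 and Dlx6, were listed at 0 in C57BL/6J controls. With a deposited mean of at least 3 in C57BL/6J in controls and in DEHP males, 9 promoters were listed at 0 in both FVB/N groups, and 0 promoters showed the reverse. In controls this minimum is a lower bar for C57BL/6J than for FVB/N, because the deposited sums differ. With a minimum of 3 on the scaled level, which is the same bar for both strains, the counts were 7 and 0, and without any minimum 39 promoters were listed at 0 in both FVB/N groups and 2 in both C57BL/6J groups. The 9 were Actr2, Ap1m1 (a subunit of a clathrin adaptor), Mak16 (a ribosome assembly factor), Stk38l (a protein kinase), Defb8 (a beta-defensin), Vmn1r1 (a vomeronasal receptor), 5730507C01Rik, and the pseudogenes Nlrp1c-ps and Tmem181b-ps. Of these, 7 had separated libraries in controls and 7 in DEHP males.
The Ap1m1 level was 6.09 ± 3.09 in C57BL/6J controls and 4.55 ± 1.80 in C57BL/6J DEHP males. The Mak16 level was 4.06 ± 1.54 and 8.51 ± 3.00, and that of Vmn1r1 6.09 ± 2.68 and 10.8 ± 4.07. Their probes lie at chr8:72238132-72240331, chr8:31168525-31170724 and chr1:182157899-182160098. Listed variants in the probe numbered 15 in Ap1m1, 11 in Mak16 and 0 in Vmn1r1 and in Tmem181b-ps. By the paper's methods the list holds homozygous single-base changes, insertions and deletions with a minimum coverage by reads. A count of 0 therefore need not mean the same sequence in both strains.

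The same strain contrast in DEHP males, in other animals and other libraries, gave 66 promoters with C57BL/6J higher (0.294%) and 8 with FVB/N higher (0.0356%) by separated libraries. By the looser call there were 196 (0.872%) and 20 (0.089%). Of the 69 promoters separated in controls with C57BL/6J higher, 67 had the same sign in DEHP males, and 54 (78.3%) had a log2 ratio of at least 1, compared with 3.13% of all promoters. The 2 others were Taf2, with a log2 ratio of -0.00, and Acp2, at -0.30, both with 0 variants. Libraries were separated in both arms at 16 promoters, of which 12 carried more than 10 variants and 1 carried none. Of the 69 they were drawn from, 45 (65.2%) carried more than 10 and 10 (14.5%) none, compared with 12.7% and 53.9% of all promoters. The 16 included Actr2, Cd200r2, Mak16, Vmn1r1 and Zfp637, a zinc finger gene with 64 variants. The median log2 ratio of the 69 was 2.03 in controls, where they were chosen, and 1.71 in DEHP males.

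Of the 25 promoters separated in controls with FVB/N higher, 20 had the same sign in DEHP males, 4 had a log2 ratio of -1 or less, and 0 had separated libraries. Over all promoters, 48.3% were lower in C57BL/6J DEHP than in FVB/N DEHP, and 0.569% had a log2 ratio of -1 or less. The median log2 ratio of the 25 was -1.53 in controls and -0.50 in DEHP males. The median level of these promoters in FVB/N was 16.3 in controls and 9.04 in DEHP males, and in C57BL/6J it was 5.76 and 7.79. The 4 promoters with a log2 ratio of -1 or less in both arms were 2810429I04Rik, 6820431F20Rik, Mir6385 and Dlx6, a homeobox gene of limb and forebrain that was listed at 0 in C57BL/6J in both arms. Dlx6 and 2810429I04Rik were named after their values were seen. In 6820431F20Rik the DEHP males had 24.1 ± 5.62 in FVB/N and 8.63 ± 4.07 in C57BL/6J. In Rps4l and Rnf19b, by contrast, the DEHP log2 ratios were 0.17 and 0.09.
Among the promoters of the looser call, 176 of 196 (89.8%) with C57BL/6J higher and 44 of 70 (62.9%) with FVB/N higher had the same sign in DEHP males, and 0 of either were called in the opposite direction there. Starting from the DEHP males, 62 of the 66 with C57BL/6J higher and all 8 with FVB/N higher had the same sign in controls. Across all 22480 promoters the log2 ratios of both arms had a Pearson correlation of 0.22 and a Spearman correlation of 0.13. Promoters share libraries within an arm and are not replicates. Treatment and submission differ between the arms and cannot be told apart.

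**Figure D3:**
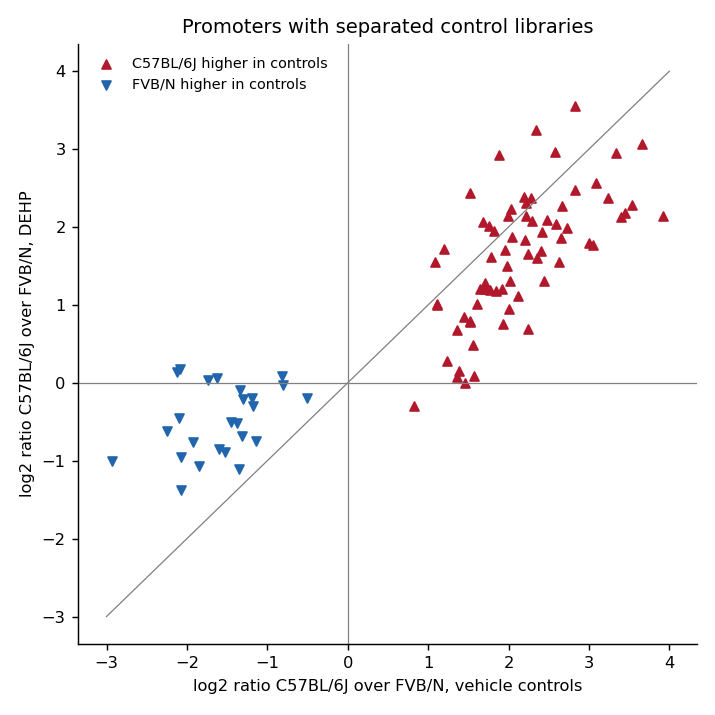
Log2 ratio of C57BL/6J over FVB/N in vehicle controls (x axis) and in DEHP males (y axis) for the 69 promoters with separated control libraries and C57BL/6J higher (red) and the 25 with FVB/N higher (blue). The diagonal marks equal ratios, and 67 red points lie above 0 on the y axis while 20 of 25 blue points lie between 0 and the diagonal.

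The deposited table counts the variants between the strains in each promoter, and the median strain difference rose with this count. As labelled, the counted interval runs from 200 bases before to 2 kb after the start, the reverse of the probe. It is taken here as the probe. Over all 22480 promoters, the log2 ratio and the count had a Pearson correlation of 0.25 in controls and 0.33 in DEHP males. The Spearman correlations were 0.17 and 0.21. Promoters with 0 variants (12124) had a median log2 ratio of -0.05 in controls, those with 1 to 5 variants (5624) -0.01, and those with 6 to 10 (1870) 0.07. The median was 0.20 with 11 to 20 variants (1648), 0.41 with 21 to 40 (1029) and 0.70 with more than 40 (185). In DEHP males the medians in the same order were -0.03, 0.01, 0.07, 0.20, 0.43 and 0.94. C57BL/6J was the higher strain at 45.8% of promoters with 0 variants and at 88.1% of those with more than 40 in controls, and at 45.8% and 96.2% in DEHP males.
The calls were uneven in the same way. By the looser call, 0.239% of promoters with 0 variants had C57BL/6J higher and 0.305% had FVB/N higher. With 11 to 20 variants these shares were 2.25% and 0.546%, with 21 to 40 they were 5.05% and 0.0972%, and with more than 40 they were 15.7% (29 promoters) and 0 promoters. Of the 69 separated promoters with C57BL/6J higher, 45 (65.2%) carried more than 10 variants, compared with 4 of the 25 (16.0%) with FVB/N higher and 12.7% of all promoters. The median level with 0 variants was 4.06 in C57BL/6J against 4.04 in FVB/N, and with more than 40 variants it was 3.82 against 1.56.

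**Figure D4:**
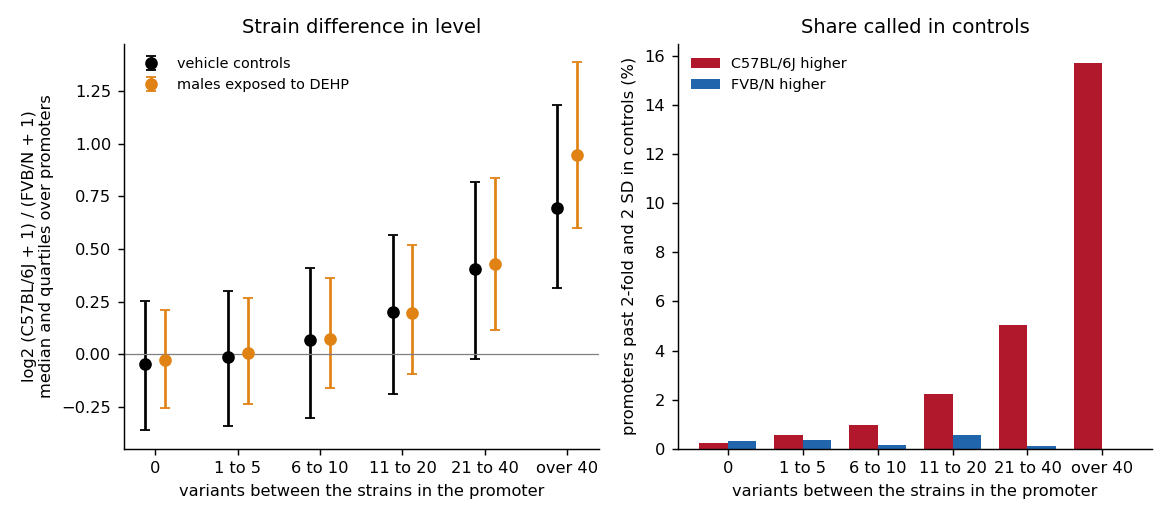
Left, median (points) and quartiles (bars) over promoters of the log2 ratio of C57BL/6J over FVB/N, by the number of variants in the promoter, in controls (black) and in DEHP males (orange). Right, the percent of promoters past 2-fold and 2 SD in controls with C57BL/6J higher (red) and FVB/N higher (blue), which reaches 15.7% and 0 with more than 40 variants.

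Promoters with more than 40 variants had a higher median ratio than those with 0 in each class of CG sites, though the steps between were uneven in probes with few CG sites. From 0 to more than 40 variants, the control median went from -0.11 to 0.49 in probes with up to 10 CG sites, from 0.04 to 0.78 with 11 to 30, from -0.07 to 0.89 with 31 to 60, and from -0.08 to 0.56 with more than 60, where 13 promoters had more than 40 variants. Over all variant counts, the control medians of the 4 CG classes were -0.08, 0.10, -0.01 and -0.05, and the median number of CG sites was 41 in the 69, 46 in the 25 and 45 in all promoters.
By functional variants, which the table counts for the gene and not for the probe, the control median was -0.02 with 0 of them (16894 promoters) and 0.39 with more than 20 (73 promoters). Where the probe held 0 variants, it was -0.05 with 0 functional variants (11298), -0.02 with 1 to 5 (783), -0.12 with 6 to 20 (38) and -0.31 with more than 20 (5). Where the probe held more than 20 variants, it was 0.44 with 0 functional variants (370), 0.45 with 1 to 5 (620), 0.50 with 6 to 20 (192) and 0.65 with more than 20 (32), and 18.8% of the last were called with C57BL/6J higher. Of the 69, 58.0% had at least 1 functional variant, compared with 28.0% of the 25 and 24.8% of all promoters.
Promoters without a listed variant were 10 of the 69 (14.5%) and 10 of the 25 (40%), compared with 53.9% of all promoters. Such promoters can still differ in sequence between the strains, because the list needs a minimum coverage by reads. Among the 10 with C57BL/6J higher, Gm9833, Olfr1033, Arhgap31, Tmem181b-ps, Trim30e-ps1 and Vmn1r1 had a log2 ratio above 1 in DEHP males too, the last 3 of them against an FVB/N level listed at 0, whereas Taf2, Wdr45b, Acp2 and Nfx1 had DEHP log2 ratios between -0.30 and 0.28.

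Runs of called neighbours were found on the deposited scale alone among the settings tried. At a distance of 200 kb between starts, 0 runs of 3 neighbouring promoters past 2-fold and 2 SD in one direction were found, and likewise at 100 and 500 kb. With the means as deposited, where 953 promoters were called with C57BL/6J higher, 9 such runs were found at 200 kb. Bins of 1 Mb were also compared, of which 1468 held at least 5 promoters. In 19 of them the median log2 ratio was 0.5 or more, and in 24 it was -0.5 or less. Of the 19, 16 had a median above 0 in DEHP males, against 52.3% of all bins, and of the 24, 17 had one below 0, against 47.7% of all bins. The median promoter of a bin carried 16 variants in the 19, 0.5 in the 24 and 0.5 in all bins, as medians over bins.

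The lowest bin, on chromosome 3, held Jade1, Pgrmc2, Sclt1 and 2 others (median -0.86, and -0.18 in DEHP males). The highest, on chromosome 8, held Frg1, Fgl1, Pcm1 and 4 others (median 0.83 in both arms, with 4 of 7 above 0 in controls), followed by a bin on chromosome 12 with Ahr, Agr2, Agr3, Snx13 and 1 other (median 0.82, and 0.47 in DEHP males, with 5 of 5 above 0 in controls). Bins with 1 gene family were chosen after their values were seen. Among the low bins were one of mostly olfactory receptor genes on chromosome 9 (19 promoters, median -0.60), a bin of type 2 vomeronasal receptor genes on chromosome 3 (8 promoters, -0.70) and a bin of Esp genes, which code for exocrine gland secreted peptides, on chromosome 17 (6 promoters, -0.57). In DEHP males these medians were -0.08, 0.31 and -0.26. The regions that follow were chosen in the same way. On chromosome 1, 38 promoters of olfactory receptor and Ifi200 genes between 173131016 and 174923819 had a median log2 ratio of 0.49 in controls and 0.60 in DEHP males, with 32 and 27 of them above 0, compared with 50.0% and 51.7% of all promoters. Their median number of variants was 27.5. Past 2-fold and 2 SD were 5 of the 38 in C57BL/6J, namely Olfr218, Olfr432, Olfr433, Ifi204 and AI607873, and 0 in FVB/N, beside 0.872% and 0.311% of all promoters. The Olfr218 level was 6.33 ± 1.14 in C57BL/6J against 1.17 ± 1.30 in FVB/N. Ifi204, an interferon-inducible sensor of DNA, had 5.20 ± 1.87 against 0.26 ± 0.651.
The Klra genes of chromosome 6, receptors of natural killer cells, had low levels in either strain (medians 0.731 and 0.130 over 14 promoters, some with identical probes). Their median log2 ratio was 0.63 in controls and 1.06 in DEHP males, with 12 and 14 above 0, and 0 of them passed 2-fold and 2 SD. In the MHC of chromosome 17, from 33903135 to 37492667, the median over 201 promoters was 0.13 and in DEHP males 0.20. The 4 called there were all higher in C57BL/6J. They were H2-T23 and C920025E04Rik at one place, and the overlapping probes of AA388235 and of the class I gene H2-K2 at another, where H2-K2 had 30.6 ± 10.2 in C57BL/6J against 8.98 ± 5.21 in FVB/N.

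The defensin region of chromosome 8, 18950776 to 21969974, held separated promoters in both directions among 45 (median log2 ratio 0.09), with 3 (6.67%) where C57BL/6J was higher and 2 (4.44%) where FVB/N was, beside 0.307% and 0.111% of all promoters. Defensins are antimicrobial peptides whose genes lie in clusters. C57BL/6J was higher at Defb8, AY761185 and Gm15284, and FVB/N at the transcripts 6820431F20Rik and 2610005L07Rik. Gm15284 had 16.4 ± 4.47 in C57BL/6J against 1.04 ± 1.17 in FVB/N, with a DEHP log2 ratio of 2.56. 2610005L07Rik had 2.68 ± 0.893 against 13.02 ± 4.17, with a DEHP log2 ratio of -0.76. Reads of near-identical gene copies in such clusters are discarded as ambiguous or can be placed at a copy, so the levels there are uncertain.

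By chromosome the control median lay between -0.04 and 0.06 on each autosome. On the X chromosome it was -0.18 over 753 promoters (level medians 1.14 in C57BL/6J against 1.56 in FVB/N), compared with 0.01 in DEHP males.

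Gene groups of the germ line were then described by counts and medians, to be read beside the median of all promoters, which was 0.00 in controls and 0.02 in DEHP males. Of all promoters, 49.9% were below 0 in controls, and 0.872% were called with C57BL/6J higher and 0.311% with FVB/N higher. Spermatid and sperm genes (29 promoters) had a median log2 ratio of -0.20, with 1 called, Crisp2, and 20 below 0. Prm1, the protamine that packs sperm DNA, had 19.6 ± 9.66 in C57BL/6J against 35.7 ± 5.86 in FVB/N, and Prm2 had 23.5 ± 5.28 and 25.6 ± 11.8. For the piwi and piRNA pathway, which directs methylation of transposons in male germ cells, 15 of 19 promoters were below 0, with a median of -0.51 and 0 called. Of these, Piwil2 had 3.25 ± 1.62 in C57BL/6J against 10.4 ± 3.78 in FVB/N, and Fkbp6 12.4 ± 4.30 and 23.8 ± 5.47. In DEHP males the medians of both groups were 0.02. With the means as deposited they were 0.47 and 0.09 in controls, so their sign depends on the scale, whereas both stayed below the 0.54 of all promoters.
The DNA methylation machinery (17 promoters) had a median of 0.06, with 0 called. Dnmt1, the maintenance methyltransferase, had 26.7 ± 10.9 in C57BL/6J against 33.8 ± 9.50 in FVB/N, and Dnmt3l, the cofactor of germ line methylation, 23.9 ± 10.5 and 23.8 ± 18.2. MHC genes (39) had a median of 0.20 with 2 called, H2-K2 and H2-T23, and natural killer lectin-like receptors (32) a median of 0.24 with 0 called. In DEHP males the medians of these 3 groups were 0.07, 0.44 and 0.34. Among larger families, olfactory receptors (1074) had a median of 0.00 with 8 called where C57BL/6J was higher and 3 where FVB/N was (0.745% and 0.279%, near the shares of all promoters), and microRNAs (996) a median of -0.06 with 3 and 4 (0.301% and 0.402%). Vomeronasal receptors of type 1 (144) had -0.11 with 1 and 0, and those of type 2 (94) -0.21 with 0 and 1. Histone genes (49) had a median of -0.33 with 1 called in FVB/N, and clustered protocadherins (58) one of -0.29 with 0 called. In DEHP males the medians were 0.11 for olfactory receptors, -0.08 for microRNAs, 0.15 and 0.04 for vomeronasal receptors of type 1 and 2, 0.08 for histone genes and 0.09 for protocadherins, so the sign differed between the arms in the last 4. Clustered Hox genes (39) had -0.14 with 0 called and 0.00 in DEHP males, and 5 loci at which the strains are known to carry different alleles, Pde6b, Ahr, Nnt, Tyr and Hc, had 0.01 with 0 called and 0.03 in DEHP males.

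The labelled cell type was looked at with 15 promoters of maternally methylated imprints and 13 germ line genes that somatic cells methylate, which carry little methylation in sperm. The probes of Peg10 and Sgce overlap, as do those of Usp29 and Peg3. Tdrd1, Ddx4 and Mael of the germ line genes are also members of the piwi group. The scaled levels were higher in FVB/N controls than in C57BL/6J controls at 13 of 15 and 12 of 13 promoters, compared with 49.9% of all promoters, with median log2 ratios of -0.48 and -0.77. With the means as deposited these medians were 0.08 and -0.16, beside 0.54 for all promoters. The summed level of the imprint promoters was 65.9 in C57BL/6J controls and 102.3 in FVB/N controls, and in DEHP males 73.6 and 81.1. That of the germ line genes was 90.3 and 137.9 in controls, and 102.2 and 90.0 in DEHP males. The most abundant were Nnat, with 21.5 ± 6.98 in C57BL/6J against 23.6 ± 9.11 in FVB/N, Tex101 in C57BL/6J, with 13.7 ± 4.14 against 10.3 ± 8.46 in FVB/N, and Tdrd1 in FVB/N, with 20.05 against 12.2 in C57BL/6J. None of the 28 was listed at 0 in either control group.
Past 2-fold and 2 SD was 1 imprint promoter, Sgce, with 4.14 ± 2.76 in C57BL/6J against 14.1 ± 4.56 in FVB/N, and 0 germ line genes, beside 0.311% of all promoters called with FVB/N higher. Dazl, an RNA-binding protein of germ cells, had 6.09 ± 4.30 and 13.8 ± 4.30, and Sycp3, of the synaptonemal complex, 2.35 ± 1.54 and 6.25 ± 2.21. In C57BL/6J controls, 10 of the 15 imprint promoters and 6 of the 13 germ line genes were below the median of promoters with a like number of CG sites, compared with 6 and 0 in FVB/N controls. The counts were 11 and 5 in C57BL/6J DEHP males, against 11 and 7 in FVB/N DEHP males. The methods of the study state that preparations with somatic cells seen under the microscope were discarded. The part of other cells, or of the wider spread of FVB/N controls, in the promoters with higher FVB/N levels was not tested. The 4 loci beside paternally methylated imprints had a median log2 ratio of -0.61, with 3 below 0 and 0 called, whereas in DEHP males the median was 0.07 with 3 above 0. Their summed level was 44.8 in C57BL/6J controls and 42.4 in FVB/N controls, and 39.2 and 35.2 in DEHP males. Of these, H19 had 20.5 ± 5.93 in C57BL/6J against 24.5 ± 7.42 in FVB/N, and Meg3, the one above 0, 20.9 ± 8.36 and 9.11 ± 2.60. The log2 ratio was -0.98 in Rasgrf1 and -1.08 in Dlk1.

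**Figure D5:**
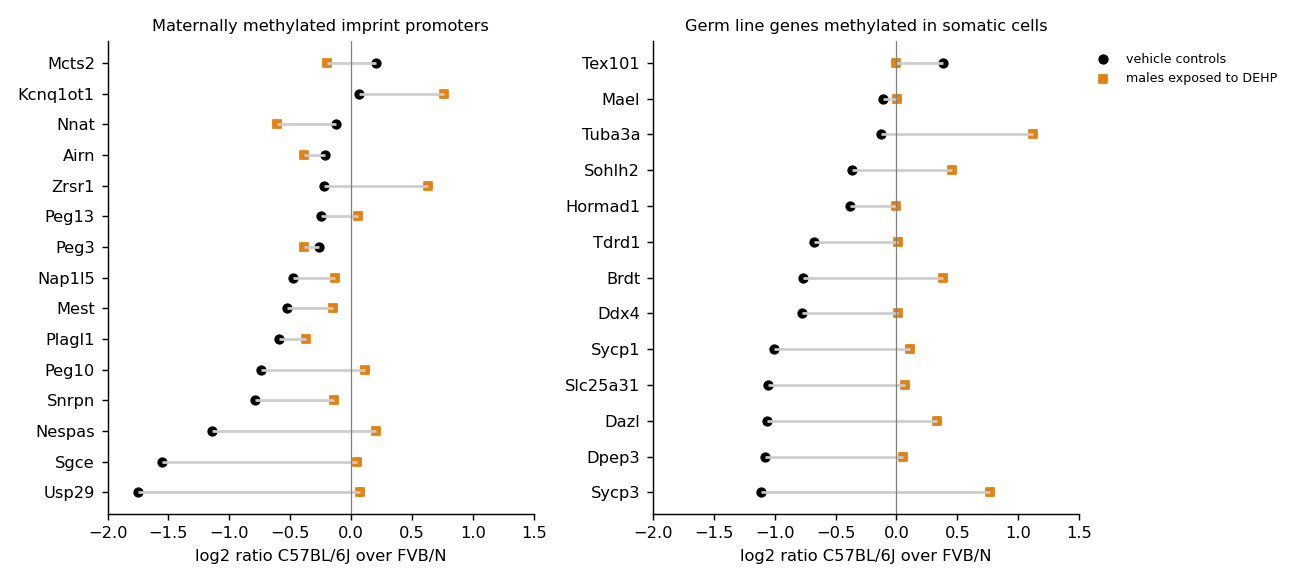
Log2 ratio of C57BL/6J over FVB/N (x axis) in vehicle controls (black circles) and in DEHP males (orange squares) for 15 maternally methylated imprint promoters (left) and 13 germ line genes methylated in somatic cells (right). In controls 13 and 12 promoters lie below 0, and in DEHP males 8 and 2 do.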

How the data were processed

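Sperm DNA of 20 males, 5 in each of 4 groups, was captured with a methyl binding domain and sequenced. By the study's methods and the submitters' processing notes, the authors used Bowtie 0.12.7 with mm10, discarded ambiguous and distant pairs and those without CpG, counted pairs over probes from 2 kb before to 200 bases after each gene start and normalized them with edgeR. The values they deposited are signal values, a group's mean and SD of normalized reads with 1 decimal, and these were used with the deposited counts of CG sites and variants. The authors' fold changes, p-values and FDR (DEHP against control) and expression columns were not used. There were 0 further columns of single samples. Depth per library is not given in the sources used here, and the SD is the only error.

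All 4 mean columns were scaled to the average sum of the control columns, with a pseudocount of 1. Group ranges of 1.79 SD were widened by a rounding step of 0.05. These ranges were also run on simulated data with the same dispersion in both groups. That run does not carry over to the wider spread of FVB/N controls. Named are the 12 regions with the largest difference over the larger SD in each direction, promoters listed at 0 in one strain in both arms, and members of described lists. For 1 of the 12 regions with FVB/N higher, the result is not reported here. The comparison, its members and the gene lists were chosen with earlier results of these data known, and the regions of gene families after their values were seen. Repeats, GC and exons came from GRCm38.p6 and GENCODE, and 93.2% of probes had the same number of CG sites there. Python 3.11.15 ran with pandas 2.3.3, numpy 2.4.6, matplotlib 3.10.9, statsmodels 0.14.6 and scipy 1.17.1. Alternatives were other scales, a pseudocount of 0.1, a filter on means of at least 1, narrower ranges, another SD, and a lowess correction for CG sites. Only promoters were analysed here.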

Additional observations from a re-analysis of the deposited data

How the results depend on the processing

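With the means as deposited, separated promoters numbered 239 with C57BL/6J higher and 6 with FVB/N higher, promoters past 2-fold and 2 SD 953 and 15, and separated promoters of the same sign in DEHP males 204 and 4. With the root mean square of both SDs in place of the larger SD, the looser call gave 311 and 137 promoters. Every other count was within 1.5 times under equal medians (65 and 29 separated), equal sums without the 10 highest promoters, ranges not widened (82 and 31) and, for the looser call, a pseudocount of 0.1 and a filter on means of at least 1. A scale set on promoters with 0 variants, chosen after seeing the data, gave 74 and 20. The difference in median log2 ratio between promoters with more than 40 and with 0 variants was 0.74, and it lay between 0.68 with the means as deposited and 1.07 with a pseudocount of 0.1, with 0.80 outside Vmn, Olfr and Mir genes. Relative to all promoters, the medians of the imprint, germ line and piwi groups stayed below 0 under every scale, pseudocount, filter and CG correction run, whereas the imprint and piwi medians themselves were 0.08 and 0.09 with the means as deposited. Runs of called neighbours numbered 9 with the means as deposited and 0 under the other scales, pseudocount, filter, SD and distances, of which all but equal medians and the distances were added after seeing the data. Of 31 named promoters with separated libraries, 22 kept them with the means as deposited and 29 with the scale on promoters with 0 variants. Leaving out single libraries was not run, since the files hold group means. No paired analysis was possible because the labels give no replicate numbers shared between groups. Low levels limit what can be seen: at the median level near 4, the 1.79 SD ranges are wide, above all in FVB/N controls.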
